A study of Mus musculus with 76 samples.

Results

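The genes described here build the neuronal microtubule and the machinery that uses it. They are the tubulins, the kinesin motors and their light chains, the cytoplasmic dynein subunits, the stathmins and the microtubule-associated proteins (MAPs), read in the hippocampus of rTg4510 mice and their littermates. Members were taken by gene symbol, and the gene of tau itself, Mapt, was left out. The symbols were Tuba, Tubb, Tubg, Kif, Klc and Stmn with a number, and those that begin with Dync, Dynl or Map7. Map1a, Map1b, Map1s, Map2, Map4 and Map6 were listed too, and Map7d1 came in under Map7. On the array 59 of the 11807 genes with a single symbol were members: 5 alpha-tubulins, 6 beta-tubulins, 2 gamma-tubulins, 4 stathmins, 7 MAPs, 3 kinesin light chains, 14 transport and other kinesins, 2 kinesins of cilia, 7 mitotic kinesins and 9 dynein subunits. Where a gene had several probe sets, the one with the highest mean over the 76 arrays stood for it. No member was dropped for low signal, and 14 had a mean log2 signal under 4.

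Tau binds along microtubules, which are polymers of alpha- and beta-tubulin that start from gamma-tubulin rings and act as tracks in axons and dendrites. Kinesins carry vesicles, mitochondria and RNA mostly toward the plus end, at the axon tip, and cytoplasmic dynein returns cargo to the cell body. MAPs stabilise and space the tracks, and stathmins bind free tubulin and promote disassembly.

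RNA from the hippocampus of 76 female mice was measured, 1 array per mouse as the sample titles name them, while the series' design text speaks of 1 to 4 mice per genotype. If arrays held pooled RNA, each n here would count pools. rTg4510 mice carry human tau with the P301L mutation behind a tetracycline-responsive element and the transactivator tTA, driven by the CaMKIIα promoter in forebrain excitatory neurons, that switches it on. tTA mice have only the transactivator, and DN mice, the double negative littermates, have neither transgene. All came from crosses of FVB/N tau carriers with tTA carriers of another strain, and no arrays of mice with the tau transgene alone were analysed here, so that an effect of the tau insertion and one of tau protein cannot be told apart. There were 10 rTg4510 mice at an age near 1.9 months, 10 near 4.7 and 6 near 6.1 months. Of tTA and of DN mice alike there were 10 near 4.7, 10 near 6.1 and 5 near 10.7 months. The values are log2 signals, so a difference of 1 is a doubling. A difference is given with its SE from limma and is said to have passed where its p, adjusted over all 22626 probe sets, was at most 0.05.

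The hippocampal label is that of the sample titles, and no other tissue was read here to check it. The score of 4 CA1 pyramidal genes (their mean log2 signal) lay between 8.26 and 8.82 in every tTA and DN mouse of 4.7 and 6.1 months. In rTg4510 mice this score lay between 7.62 and 8.51 at 4.7 months and between 7.21 and 7.84 at 6.1 months, and 4 of the 4 genes were lower than in tTA at 6.1 months. The microglia score of 8 genes was between 8.01 and 8.55 in rTg4510 and between 6.79 and 7.05 in tTA at 6.1 months, with 8 of 8 genes higher, and 4 of 4 astrocyte genes were higher too. Of 6 genes found in neurons generally, Rbfox3 and Syn1 were lower at 6.1 months, and the score of the list was 10.25 ± 0.11 in rTg4510 and 10.28 ± 0.15 in tTA (SD, n = 6 and 10). Choroid plexus genes, from tissue that adjoins the hippocampus, averaged 6.98 in rTg4510 and 5.26 in tTA at 4.7 months, and ranged from 4.10 to 8.06 among the tTA mice. In bulk tissue, fewer cells of a type and less RNA per cell cannot be told apart. The part that these shifts had in the results below was not tested, except that each fit was repeated with the choroid plexus score as a term in the model. 2 arrays stood apart. The 4.7 month array labelled rTg4510 mouse 40 had a microglia score of 6.86, where the other 9 mice lay between 7.50 and 8.36, and a CA1 score of 8.51, above the others. The 6.1 month tTA mouse 21 had the lowest neuron score of its group, 9.92 against 10.17 to 10.42. Results that turned on either are given without it as well.

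At 6.1 months the tubulins, dynein subunits and kinesins that differed between rTg4510 and tTA mice were mostly lower, by 0.12 to 0.28 log2 units, and a single alpha-tubulin, Tuba8, was higher by 0.54. Of the 59 members 10 were lower, 16.9% beside 8.64% of all genes, and 1 was higher, beside 6.23% of all genes. Without rTg4510 mouse 7 the members lower were 5, and without mouse 12 they were 6. The share of all genes was not recomputed without either mouse, so these counts have no such share beside them. The median difference of the members was -0.05, with 43 of 59 below 0, and that of all genes was -0.02. At 4.7 months 2 members were higher (5.73% of all genes were) and 1 was lower (3.38% of all genes were), Tuba8 and Klc3 up and Kif5a down, and the median of the members was -0.03 against -0.01 for all genes. The shares of members called at 4.7 months lay below those of all genes. At 4.7 months centring each array on its median turned the balance of all genes called from 676 higher against 399 lower to 551 against 632, and the members called were then 2 higher and 5 lower. At 6.1 months it turned 736 against 1020 to 607 against 1335, with 1 member higher and 11 lower. With only the rTg4510 and tTA mice in the fit at 6.1 months, 5 of the 11 calls held, those of Tuba8, Tubb3, Tubb4a, Kif3c and Dync1li1. No test of the share of members against that of all genes was made. The members were brighter than genes in general, with 17 of the 59 below the median of all genes in mean signal. The part of brightness in these shares was not tested.

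**Figure D1:**
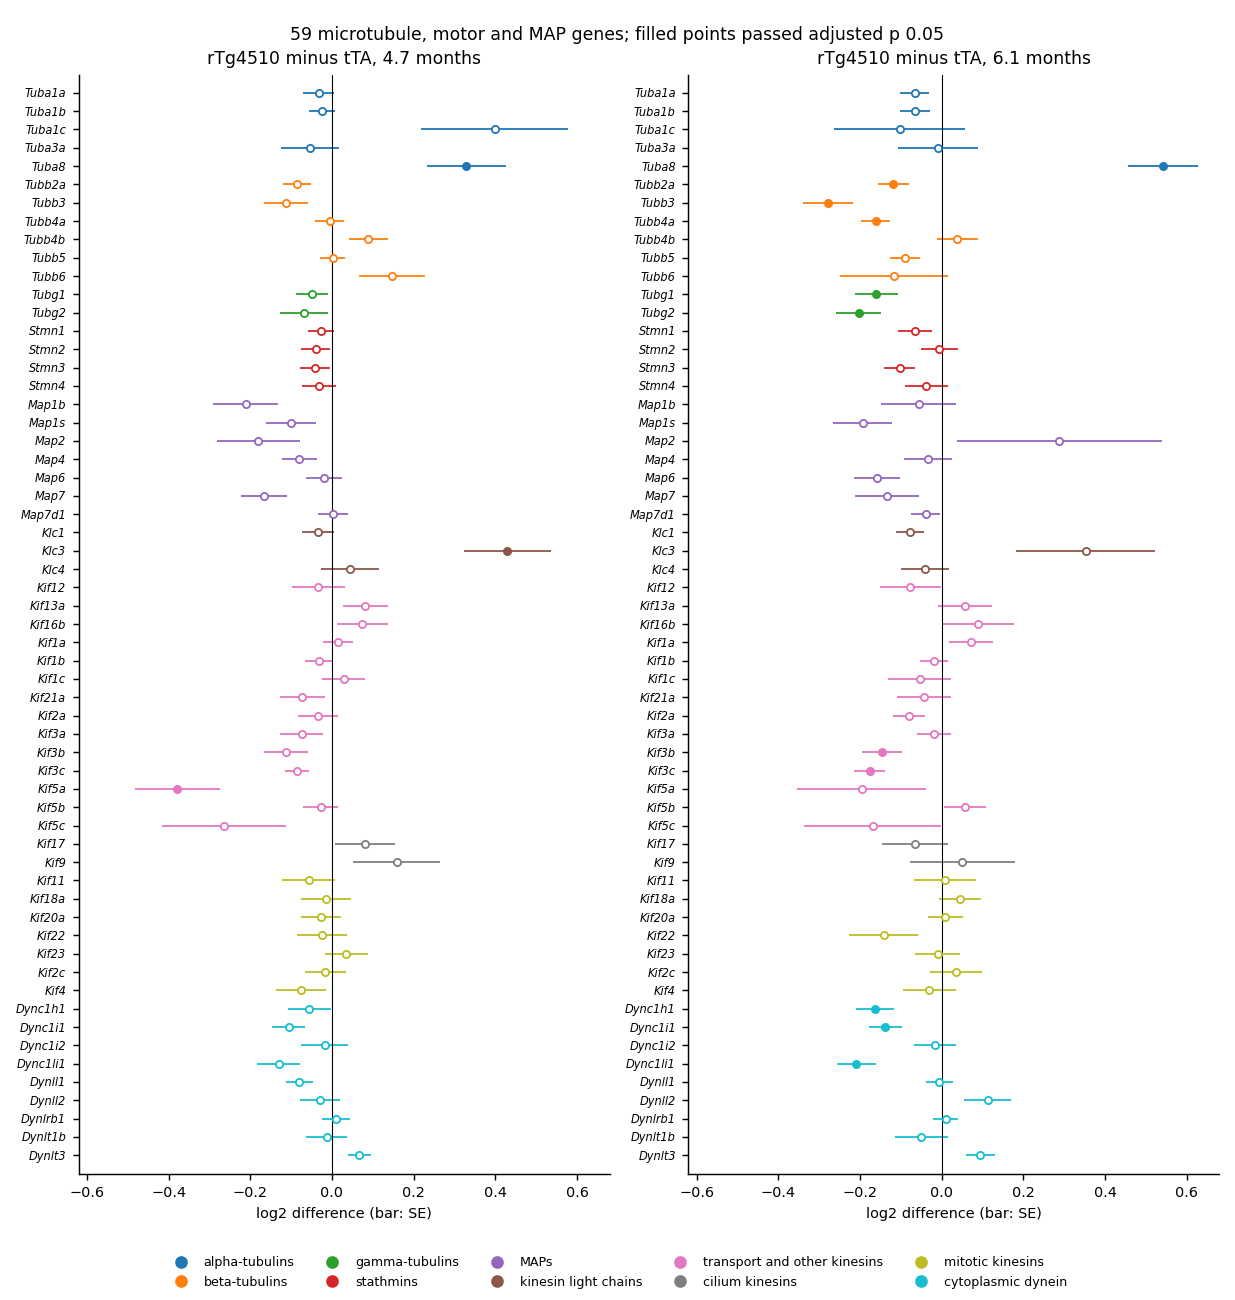
Log2 difference of rTg4510 minus tTA (x axis) for each of the 59 members (rows, coloured by role) at 4.7 and 6.1 months, with bars for the SE. Filled points passed an adjusted p of 0.05, 3 at 4.7 months and 11 at 6.1 months, and Tuba8 lies farthest to the right at 6.1 months, at 0.54.

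Tuba8, an alpha-tubulin isotype, gave signals from 5.67 to 6.77 with a median of 6.46 in the 10 rTg4510 mice of 4.7 months, and from 5.84 to 6.36 with a median of 5.99 in the 10 tTA mice. At 6.1 months the 6 rTg4510 mice lay between 6.09 and 6.72, median 6.68, and the 10 tTA mice between 5.82 and 6.14, median 6.03. The groups overlapped at both ages, but 7 of 10 rTg4510 mice at 4.7 months and 5 of 6 at 6.1 months were above every tTA mouse. The difference was 0.33 ± 0.10 at 4.7 months (adjusted p = 0.0304) and 0.54 ± 0.09 at 6.1 months (adjusted p = 5.19e-05). Without mouse 40 the earlier difference was 0.37, and the call at 6.1 months held in all 11 alternatives and without any 1 of the 16 mice, while that at 4.7 months was lost without any 1 of 9 of the 20. Already at 1.9 months the rTg4510 mice read 6.13 to 6.52, with a median of 6.36, though no control mice of that age were measured. Tuba8 rested on a single probe set. The other alpha-tubulins, Tuba1a, Tuba1b, Tuba1c and Tuba3a, did not pass at either age. Tuba1b, a widely expressed isotype, differed by -0.02 ± 0.03 and -0.06 ± 0.04.

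**Figure D2:**
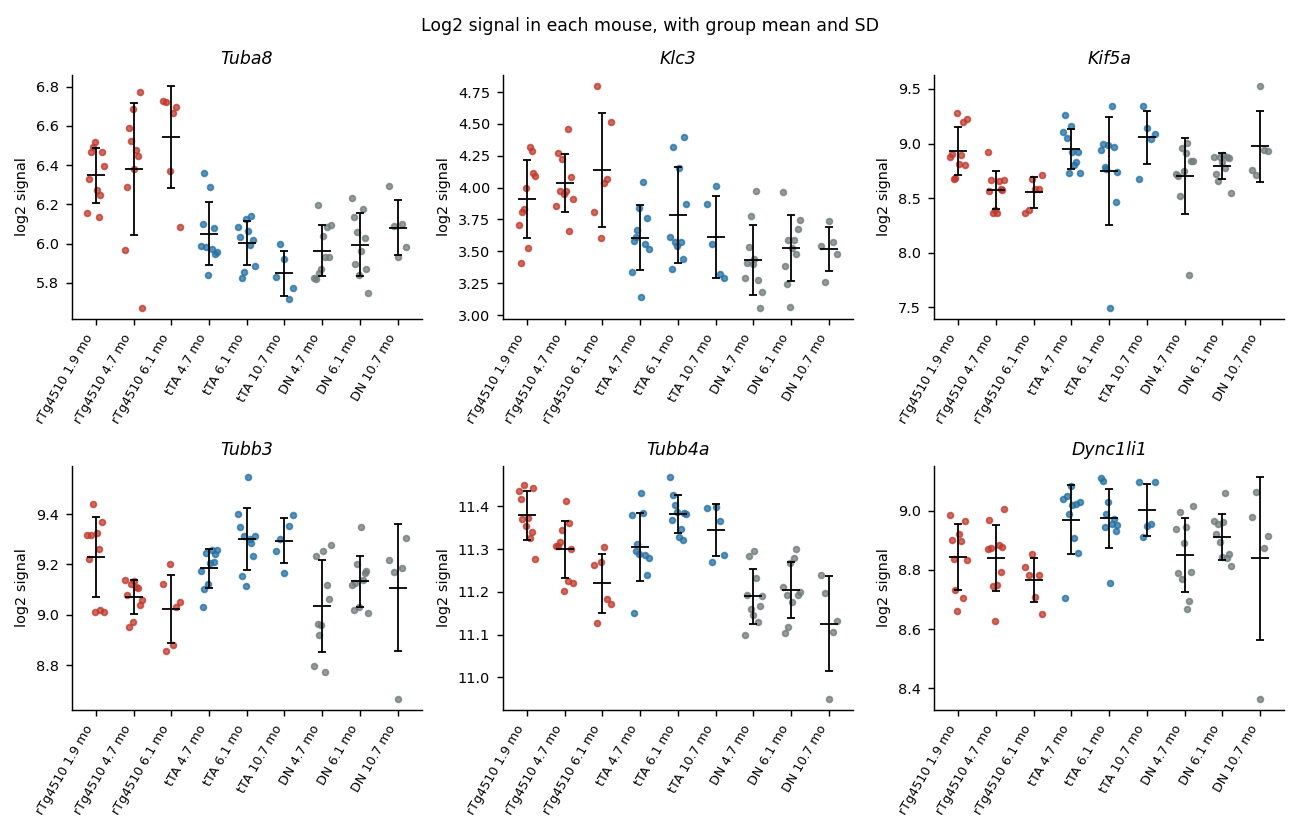
Log2 signal (y axis) of 6 members in each mouse (points) of the 9 groups (x axis, genotype and age in months), and black marks for mean and SD. No tTA or DN mouse of any age lies above 6.36 for Tuba8, and the single low tTA point of Kif5a at 6.1 months is mouse 21, at 7.50.

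Among the beta-tubulins 3 of 6 were lower at 6.1 months. Tubb3, the isotype that marks neurons, read 8.86 to 9.20 with a median of 9.04 in rTg4510 mice and 9.11 to 9.55 with a median of 9.31 in tTA mice. The groups overlapped, 4 of the 6 rTg4510 mice lying below every tTA mouse, and the difference of -0.28 ± 0.06 (adjusted p = 0.00221) was the largest fall of any member that passed at this age. Tubb4a, a brain-enriched isotype, read 11.13 to 11.31 in rTg4510 and 11.32 to 11.47 in tTA mice, with medians of 11.22 and 11.38. These groups did not overlap, and the difference was -0.16 ± 0.04 (adjusted p = 0.00283). Tubb2a read 10.96 to 11.16, median 11.07, in rTg4510 and 11.09 to 11.28, median 11.19, in tTA mice. Its difference was -0.12 ± 0.04 (adjusted p = 0.0392), and the call was lost without any 1 of 8 of the 16 mice, among them tTA mouse 21 (adjusted p = 0.0559), or with the choroid plexus covariate (0.0706). A second, dimmer Tubb2a probe set differed by -0.49 ± 0.07 (adjusted p = 2.89e-05). Tubb5, Tubb4b and Tubb6 did not pass, at -0.09, 0.04 and -0.12, although a second Tubb5 probe set was lower by 0.19 (adjusted p = 0.00743). At 4.7 months none of the 6 passed in the limma fit, the differences lying between -0.11 and 0.15.

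Both gamma-tubulins, which seed new microtubules at the centrosome and along neurites, were lower at 6.1 months. Tubg2 read 6.54 to 6.86, median 6.66, in rTg4510 and 6.68 to 7.10, median 6.85, in tTA mice, and 5 of 6 rTg4510 mice were below every tTA mouse (-0.20 ± 0.06, adjusted p = 0.0129). Tubg1 read 6.49 to 6.72, median 6.61, against 6.59 to 6.85, median 6.82. The 2 groups overlapped, with 3 of 6 rTg4510 mice below every tTA mouse. The difference for Tubg1 was -0.16 ± 0.05 (adjusted p = 0.042), which no longer passed without mouse 21 (adjusted p = 0.0603), with the choroid plexus covariate (0.0852) or without any 1 of 10 of the 16 mice.

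The promoters of 5 members are shown, because among the members that passed at 6.1 months they gave the one rise (Tuba8), the largest fall of the tubulins, of the dynein subunits and of the kinesins (Tubb3, Dync1li1 and Kif3c), and a fall seen on 2 probe sets (Tubb2a). Each printed window runs from 250 bases before to 50 after the gene's start in RefSeq, build GRCm38.p6, and is written 5′ to 3′ on the strand of the gene. It lies at chr6:121210484-121210783 on the plus strand for Tuba8, at chr8:123411303-123411602 (plus) for Tubb3, at chr9:114688581-114688880 (plus) for Dync1li1, at chr12:3364882-3365181 (plus) for Kif3c and at chr13:34077959-34078258 (minus) for Tubb2a. Capitals mark matches, on either strand, to the TATA box TATAAA, the GC box GGGCGG, the CCAAT box CCAAT and TGACG, a core of the cAMP response element. None of the 4 motifs contains another.
Tuba8: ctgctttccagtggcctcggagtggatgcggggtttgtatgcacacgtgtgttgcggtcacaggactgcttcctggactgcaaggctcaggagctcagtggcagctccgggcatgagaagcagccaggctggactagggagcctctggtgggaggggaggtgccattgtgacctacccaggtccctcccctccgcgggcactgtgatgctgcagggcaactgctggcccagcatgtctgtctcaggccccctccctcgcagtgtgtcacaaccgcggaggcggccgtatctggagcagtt
Tubb3: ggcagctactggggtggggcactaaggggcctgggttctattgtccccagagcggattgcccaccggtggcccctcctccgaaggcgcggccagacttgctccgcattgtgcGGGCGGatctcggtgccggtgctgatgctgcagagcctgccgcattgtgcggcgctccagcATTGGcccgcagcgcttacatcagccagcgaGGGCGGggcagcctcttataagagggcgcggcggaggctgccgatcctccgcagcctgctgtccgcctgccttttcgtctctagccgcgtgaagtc
Dync1li1: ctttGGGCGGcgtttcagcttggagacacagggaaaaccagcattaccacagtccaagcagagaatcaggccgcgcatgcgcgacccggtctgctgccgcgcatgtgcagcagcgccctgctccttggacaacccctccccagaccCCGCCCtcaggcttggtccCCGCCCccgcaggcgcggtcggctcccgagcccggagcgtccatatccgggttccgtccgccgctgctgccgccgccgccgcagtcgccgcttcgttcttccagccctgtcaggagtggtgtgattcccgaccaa
Kif3c: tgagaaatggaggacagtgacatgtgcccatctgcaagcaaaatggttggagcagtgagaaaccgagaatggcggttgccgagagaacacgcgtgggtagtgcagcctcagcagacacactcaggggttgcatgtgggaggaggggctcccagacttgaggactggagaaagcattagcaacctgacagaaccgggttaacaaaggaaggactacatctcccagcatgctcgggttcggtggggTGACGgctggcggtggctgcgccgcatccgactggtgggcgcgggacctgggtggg
Tubb2a: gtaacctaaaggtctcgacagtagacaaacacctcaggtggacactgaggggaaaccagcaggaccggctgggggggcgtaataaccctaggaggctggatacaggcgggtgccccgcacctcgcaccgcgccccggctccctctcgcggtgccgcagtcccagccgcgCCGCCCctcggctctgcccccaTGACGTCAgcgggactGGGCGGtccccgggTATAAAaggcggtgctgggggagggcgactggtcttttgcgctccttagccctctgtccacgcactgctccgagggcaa

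No match lay in the Tuba8 window. The Tubb3 window held 2 GC boxes and 1 CCAAT box, that of Dync1li1 3 GC boxes, and that of Kif3c 1 TGACG. The Tubb2a window held 1 TATA box, 2 GC boxes and TGACG on both strands. Windows were found for 48 of the 59 members, 56 in all, as some genes have several starts. Of the 56, 27 were placed like the printed ones at the outermost start of the gene, and the others were set on other starts. A GC box was in 73.2% of them and in 35.7% of all 32851 windows, TGACG in 41.1% and 20.8%, CCAAT in 33.9% and 37.4%, and TATAAA in 12.5% and 13.6%. The GC content of the printed windows was 63.7%, 67.3%, 68%, 59.3% and 67%, in the order shown. A match is a run of letters and does not show that a factor binds there.

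Of the 14 transport and other kinesins 1 was lower at 4.7 months and 2 were lower at 6.1 months. Kif5a, the neuronal heavy chain of conventional kinesin, read 8.36 to 8.92 with a median of 8.58 in rTg4510 mice of 4.7 months and 8.73 to 9.26 with a median of 8.92 in tTA mice. All rTg4510 mice but mouse 40 were below every tTA mouse, and the difference was -0.38 ± 0.10 (adjusted p = 0.0213). Against DN mice Kif5a did not pass at 4.7 or 6.1 months with all mice in the fit. The 4.7 month DN mouse 57 read 7.80, where the next lowest was 8.52, and the result without it is not given here. At 6.1 months the rTg4510 mice read 8.37 to 8.71, median 8.58, and the tTA mice 7.50 to 9.34, median 8.86, where the lowest value was that of mouse 21 and the next was 8.46. With mouse 21 Kif5a differed by -0.20 ± 0.16 (adjusted p = 0.501) and without it by -0.34 ± 0.09 (adjusted p = 0.0116). A second Kif5a probe set, with a mean of 3.27 near the low end of the scale, was lower by 0.18 at 4.7 months (adjusted p = 0.0279) and by 0.21 at 6.1 months (adjusted p = 0.0168). With the choroid plexus covariate Kif5a differed by -0.39 at 4.7 months, with an adjusted p of 0.0625.

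The other 2 heavy chains of conventional kinesin, Kif5b and Kif5c, did not pass. For Kif5b the difference at 6.1 months was 0.06, and 1 of its 4 other probe sets was higher by 0.13 (adjusted p = 0.0448). Kif3c, a neuronal partner in heterodimeric kinesin-2, read 8.84 to 9.02, median 8.90, in rTg4510 and 9.0 to 9.22, median 9.10, in tTA mice at 6.1 months. Of the 6 rTg4510 mice 5 were below every tTA mouse, and the difference was -0.18 ± 0.04 (adjusted p = 0.00209). At 4.7 months Kif3c differed by -0.09 ± 0.03 (adjusted p = 0.0767), and without mouse 40 by -0.10 ± 0.03 (adjusted p = 0.025). Kif3b, which like Kif3c pairs with Kif3a, differed by -0.15 ± 0.05 (adjusted p = 0.0471), from 7.21 to 7.46, median 7.35, in rTg4510 and 7.37 to 7.64, median 7.49, in tTA mice. The groups overlapped, the 3 other Kif3b probe sets differed by 0.02 at most, and the call was lost in 7 of 11 alternatives. The common partner Kif3a differed by -0.02. The other kinesins of this group, among them the synaptic vesicle motors Kif1a and Kif1b, did not pass at either age.

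Klc3, a kinesin light chain, was read near the low end of the scale, at 3.66 to 4.46 with a median of 3.97 in rTg4510 and 3.14 to 4.04 with a median of 3.60 in tTA mice at 4.7 months. The groups overlapped, 4 of 10 rTg4510 mice lay above every tTA mouse, and the difference was 0.43 ± 0.11 (adjusted p = 0.0104). With the choroid plexus covariate it was 0.26 ± 0.10 (adjusted p = 0.157). At 6.1 months Klc3 differed by 0.35 ± 0.17 (adjusted p = 0.201). Klc1, the light chain of neurons, did not pass at either age, but its probe sets went different ways at 6.1 months. The one of highest signal gave -0.08 ± 0.03, and the others 0.17 ± 0.11 and 0.19 ± 0.05, the last with an adjusted p of 0.0162. Klc4 differed by 0.04 at 4.7 and -0.04 at 6.1 months and did not pass.

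Of the 9 subunits of cytoplasmic dynein 3 were lower at 6.1 months, a light intermediate, a heavy and an intermediate chain. Dync1li1, a light intermediate chain that links dynein to its cargo adaptors, read 8.65 to 8.86, median 8.78, in rTg4510 and 8.76 to 9.11, median 8.96, in tTA mice. The groups overlapped, and the lowest tTA value was that of mouse 21. The difference was -0.21 ± 0.05 (adjusted p = 0.00289), and without mouse 21 it was -0.23. Dync1h1, the heavy chain with the motor domain, read 10.18 to 10.58, median 10.31, against 10.45 to 10.63, median 10.53 (-0.16 ± 0.05, adjusted p = 0.0184). Dync1i1, the neuronal intermediate chain, read 8.90 to 9.21, median 9.12, against 9.18 to 9.34, median 9.24 (-0.14 ± 0.04, adjusted p = 0.0199). For both, the groups overlapped and 4 of 6 rTg4510 mice were below every tTA mouse. The call for Dync1h1 was lost without any 1 of the rTg4510 mice 7, 10 and 12, and that for Dync1i1 without mouse 7. The widely expressed intermediate chain Dync1i2 and the light chain Dynll1 differed by -0.02 and -0.01. Dynlt3, a light chain, did not pass on its brightest probe set (0.09 ± 0.04, adjusted p = 0.0781), whereas 2 others were higher by 0.27 (adjusted p = 0.000155) and 0.44 (adjusted p = 0.0139). Dynlrb2, a light chain of ciliated cells, was not among the genes with a single symbol.

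No stathmin and no MAP passed in limma between rTg4510 and tTA mice at either age, and at an unadjusted p under 0.05 there were 0 and 1 of 4 stathmins and 2 and 2 of 7 MAPs at 4.7 and 6.1 months. The 4 stathmins differed by -0.04 to -0.03 at 4.7 months and by -0.10 to -0.01 at 6.1 months, with Stmn3 at -0.10 ± 0.04 (adjusted p = 0.069). The plain linear model called Stmn3 at 6.1 months and no other stathmin or MAP. Of the 7 MAPs 6 were below 0 at each age. Map6, which makes microtubules resist cold, was at -0.16 ± 0.06 (adjusted p = 0.0637) and Map1s at -0.19 ± 0.07 (adjusted p = 0.0805) at 6.1 months, and Map2, the MAP of dendrites, at 0.29 ± 0.25. Map7d1 differed by 0.00 and -0.04. The 7 mitotic kinesins, which work on the spindle of dividing cells, had mean signals between 2.79 and 3.60, and none passed in limma in any of the 11 comparisons, nor had an unadjusted p under 0.05 between rTg4510 and tTA mice (0 and 0 of 7), where the plain linear model called none as well. Kif4, the brightest, differed by -0.08 and -0.03. A list of 6 genes of dividing cells had scores between 3.004 and 3.30 in all mice. The kinesins assigned to cilia, Kif9 and Kif17, differed by 0.16 and 0.08 at 4.7 months and by 0.05 and -0.07 at 6.1 months.

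Set against DN mice, a comparison that uses the same rTg4510 arrays, the 10 members that were lower than in tTA at 6.1 months divided. Of these, 4 were lower than in DN as well: Tubg2 by 0.29 ± 0.06 (adjusted p = 0.000262), Kif3c by 0.21 ± 0.04 (adjusted p = 0.000254), Tubg1 by 0.15 ± 0.05 (adjusted p = 0.044) and Dync1li1 by 0.14 ± 0.05 (adjusted p = 0.0321). For Kif3c no rTg4510 mouse reached the lowest DN mouse, at 9.04. The other 6 did not pass, with Tubb3 at -0.11 ± 0.06 (adjusted p = 0.253), Dync1i1 at -0.11 ± 0.04 (adjusted p = 0.0562) and Tubb2a at -0.10 ± 0.04 (adjusted p = 0.0815). Tubb4a, Dync1h1 and Kif3b lay near the DN level, at 0.02, -0.03 and -0.03. Tuba8 was higher than in DN at 4.7 months by 0.42 ± 0.10 (adjusted p = 0.00263) and at 6.1 months by 0.55 ± 0.09 (adjusted p = 2.35e-05), and Klc3 by 0.60 ± 0.11 (adjusted p = 0.000123) and 0.61 ± 0.17 (adjusted p = 0.0121). Tubb4b, a beta-tubulin of many tissues, was higher by 0.20 ± 0.05 (adjusted p = 0.00285) and 0.17 ± 0.05 (adjusted p = 0.0152), and Map4, a MAP of many tissues, lower by 0.12 ± 0.04 (adjusted p = 0.0456) and 0.18 ± 0.06 (adjusted p = 0.0338). At 4.7 months alone Stmn2, Stmn4 and Tubb4a passed as higher, by 0.16, 0.15 and 0.11, and Map7 and Kif3b as lower, by 0.23 and 0.20. At 6.1 months Kif17 and Kif2a passed as lower, by 0.38 ± 0.08 (adjusted p = 0.00136) and 0.12 ± 0.04 (adjusted p = 0.045). Beside these, 5 of 5 dentate granule genes (median -1.12), the 1 CA3 gene (-0.31) and 4 of 4 CA1 genes were lower and 8 of 8 microglia genes higher than in DN, and their part in the result was not tested. In all, 6 members were higher and 3 lower than in DN at 4.7 months, where 7.85% of all genes were higher and 7.91% lower. At 6.1 months 3 were higher and 7 lower, where 8.55% of all genes were higher and 11.4% lower, a share close to the 11.9% of members. Without rTg4510 mouse 7 or 10 these counts were 2 and 3, and without DN mouse 28 or 78 they were 3 and 3. The shares of all genes were not recomputed without these mice. The 6.1 month calls for Tubg1 and Kif2a were lost without any 1 of 9 and of 10 of the 16 mice, and those for Dync1li1 and Map4 without any 1 of 7 and of 6. At 4.7 months the calls for Map4 and Tubb4a were each lost without any 1 of 12 of the 20 mice.

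The tTA mice, the controls of the comparison above, differed from DN mice in 3 members at 4.7 and 6 at 6.1 months. As both comparisons use the same tTA arrays, a rise here and a fall in rTg4510 against tTA are not separate observations. At 4.7 months 2 members were higher (1.51% of all genes were) and 1 was lower (3.16% were). At 6.1 months 5 were higher, 8.47% of members beside 2.7% of all genes, and 1 was lower, beside 3.62%. Stmn2, a stathmin of growing axons, read 10.96 to 11.12, median 11.06, in tTA and 10.75 to 10.95, median 10.88, in DN mice at 4.7 months. These groups did not overlap, and the difference was 0.20 ± 0.04 (adjusted p = 0.000363), with 0.18 ± 0.04 on its second probe set. Stmn4, a brain stathmin, read 9.75 to 9.99, median 9.88, against 9.47 to 9.82, median 9.72, at 4.7 months, and 9.72 to 9.996, median 9.91, against 9.65 to 9.84, median 9.71, at 6.1 months. Both pairs of groups overlapped, and the differences were 0.18 ± 0.04 (adjusted p = 0.00654) and 0.16 ± 0.05 (adjusted p = 0.0336). Tubb4a read 11.32 to 11.47 in tTA and 11.10 to 11.30 in DN mice at 6.1 months, with no overlap (0.18 ± 0.03, adjusted p = 0.000451). Dync1h1 also did not overlap, at 10.454 to 10.635 against 10.317 to 10.448 (0.14 ± 0.04, adjusted p = 0.0413). Tubb6, near the low end of the scale, was at 3.07 to 4.01 against 2.95 to 3.26 (0.40 ± 0.11, adjusted p = 0.0344), and Map7d1, a MAP that recruits conventional kinesin, at 9.90 to 10.03 against 9.74 to 9.94 (0.11 ± 0.03, adjusted p = 0.0424), and both overlapped. Without tTA mouse 21 the calls for Stmn4, Dync1h1 and Map7d1 at 6.1 months were lost, those for Tubb4a, Tubb6 and Kif17 held, and Stmn2 passed (adjusted p = 0.00632). With each of the 20 mice left out in turn, the 6.1 month call for Map7d1 held in 5 cases. Those for Stmn4 and Dync1h1 held in 8 each, that for Tubb6 in 10, and those for Tubb4a and Kif17 in all 20. The call for Tubb6 was also lost in the plain linear model. Without the mice numbered 75 and above, only the calls for Tubb4a and Kif17 held.

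Kif17, a kinesin of dendrites and cilia, was the member lower in tTA mice at both ages. It read 6.29 to 6.82, median 6.45, in tTA and 6.48 to 7.02, median 6.80, in DN mice at 4.7 months (-0.25 ± 0.07, adjusted p = 0.0467). At 6.1 months the ranges were 6.08 to 6.74, median 6.49, and 6.48 to 7.003, median 6.75 (-0.31 ± 0.07, adjusted p = 0.00618). The groups overlapped at both ages. Its second probe set gave -0.34 ± 0.06 (adjusted p = 0.000243) and -0.35 ± 0.08 (adjusted p = 0.00448), and the third, with a mean of 3.23, -0.08 and -0.08. The call at 4.7 months was lost in 6 of 10 alternatives, and with each of the 20 mice left out in turn it held in 7 cases. Beside it, 5 of 5 dentate granule cell genes were lower in tTA than in DN at each age, their score lying between 4.85 and 5.15 in tTA and between 6.14 and 6.41 in DN mice at 6.1 months, and the part of this shift in the Kif17 values was not tested.

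**Figure D3:**
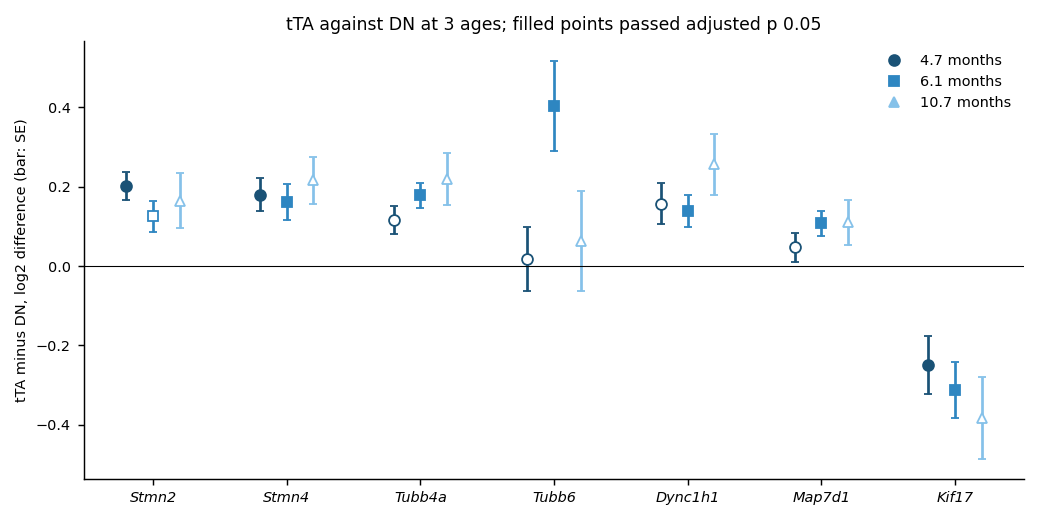
Log2 difference of tTA minus DN (y axis, bars for the SE) at 4.7, 6.1 and 10.7 months for the 7 members that passed at 4.7 or 6.1 months (x axis). Filled symbols passed an adjusted p of 0.05. Kif17 lies below 0 and the other 6 above it at all 3 ages, and no point at 10.7 months is filled.

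At 10.7 months, with 5 mice a group, no member passed in the limma fit, where 0.339% of all genes were higher and 0.762% lower. There were 7 members with an unadjusted p under 0.05, and the plain linear model called 0. Kif17 read 6.11, 6.36, 6.37, 6.49 and 6.49 in tTA and 6.53, 6.54, 6.79, 6.85 and 7.01 in DN mice. These groups did not overlap, and the difference was -0.38 ± 0.10 with an adjusted p of 0.159. Its second probe set passed, at -0.43 ± 0.08 (adjusted p = 0.0271). Stmn4 read 9.78, 9.81, 9.85, 9.90 and 9.92 in tTA and 9.53, 9.58, 9.66, 9.70 and 9.71 in DN mice, again with no overlap (0.22 ± 0.06, adjusted p = 0.156). Tubb4a read 11.27, 11.29, 11.37, 11.40 and 11.40 against 10.95, 11.11, 11.13, 11.20 and 11.24 (0.22 ± 0.07, adjusted p = 0.222). With all 9 groups in 1 fit, which lends this comparison the spread of the other mice, Tubb4a (adjusted p = 0.00138), Kif17 (0.0282), Stmn4 (0.0287) and Dync1h1 (0.0362) passed.

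Across the 3 ages of rTg4510 mice 2 members passed the F test, beside 2.87% of all genes. Kif5a read 8.68 to 9.28, median 8.88, at 1.9 months and fell by 0.36 ± 0.08 to 4.7 months and by 0.38 ± 0.09 to 6.1 months (adjusted p = 0.0105). Tubb2a read 11.12 to 11.33, median 11.21, at 1.9 months and fell by 0.12 ± 0.03 and 0.15 ± 0.04 to the same ages (adjusted p = 0.0454). Without mouse 40 the adjusted p of Tubb2a was 0.051. By sign, 4 of 4 CA1 genes and 4 of 4 oligodendrocyte genes (median -0.27) were lower at 6.1 than at 1.9 months, and 8 of 8 microglia genes were higher. Of these, 3 CA1, 3 oligodendrocyte and 6 microglia genes passed the F test over the 3 ages. The part of these shifts in the result was not tested. The members next in order were Tubb4a, Kif3c, Tubb5, Tuba1a, Tubb3 and Dynlt3, with adjusted p-values between 0.0509 and 0.108. Between 1.9 and 6.1 months these differed by -0.16, -0.15, -0.14, -0.12, -0.21 and 0.12. A second Tubb5 probe set passed (-0.23 ± 0.05 from 1.9 to 6.1 months, adjusted p = 0.00175). No control of 1.9 months was measured, so growth and transgene cannot be told apart over the first interval.

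In tTA mice no member passed the F test of age in limma (0.296% of all genes did), with 7 members at an unadjusted p under 0.05 and 0 called by the plain linear model. Those of lowest adjusted p were Kif13a (0.171), Tubb6 (0.2), Dynll1 (0.29) and Tubg2 (0.381). In DN mice no member passed either (0.364% of all genes did), with 3 members at an unadjusted p under 0.05 and 0 called by the plain linear model. There the lowest adjusted p-values were those of Tubg2 (0.104), Kif3b (0.163), Map7 (0.176) and the mitotic kinesin Kif18a. Whether the difference between rTg4510 and tTA mice changed from 4.7 to 6.1 months was tested directly, and no member passed in limma (0% of all genes did in either direction). Of the members 4 had an unadjusted p under 0.05, the plain linear model called 0, and the lowest adjusted p was that of Tubb4a (-0.16 ± 0.05, adjusted p = 0.538). The falls seen at 6.1 months were therefore not shown to be larger than the differences at 4.7 months.

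The regulators and adaptors of this machinery, 48 measured of 64 listed, were lower in rTg4510 than in tTA mice at 6.1 months in 15 cases, and none was higher in limma. Their median was -0.09, with 41 of 48 below 0, beside the -0.02 of all genes, of which 8.64% were lower. The kinases of tau and MAPs, with their activators, gave 5 of 8, among them Cdk5r2, a neuronal activator of Cdk5, at -0.38 ± 0.06 (adjusted p = 6.26e-05), as well as Cdk5r1, Gsk3a, Mark1 and Mark2. The kinesin adaptors gave 3 of 6, with Mapk8ip2, a scaffold that links kinesin to cargo, at -0.23 ± 0.04, Rhot2, which tethers mitochondria, and Kifap3, the accessory subunit of kinesin-2. Of the plus-end proteins 2 of 7 were lower, Mapre3 (EB3, which tracks growing ends in neurons) by 0.26 ± 0.05 and Clasp1. The single other neuronal MAP measured, Dclk1, was lower by 0.24 ± 0.06. The dynein adaptors Bicd2 and Bicdl1 (2 of 6 dynein regulators), Dctn1 (1 of 7 dynactin subunits) and the tubulin glutamylase Ttll1 (1 of 9 tubulin cofactors and modifiers) were lower too, and none of 4 severing enzymes passed in limma. Unlike the members, the partners were not read in the fits with other settings or with mice left out. At 4.7 months Cdk5r2 (-0.19 ± 0.05) and Mapk8ip2 (-0.13 ± 0.04) were lower and Mapre1 (0.11 ± 0.04) was higher. These were 2 and 1 of 48 partners, where 3.38% of all genes were lower and 5.73% higher. Set against DN mice at 6.1 months, 9 of the 48 partners were lower and 2 higher in rTg4510 mice. Their median there was -0.05, with 33 below 0, where 11.4% of all genes were lower and 8.55% higher. In tTA against DN at 6.1 months 2 partners were higher and 0 lower, with 36 of 48 above 0, where 2.7% of all genes were higher. The same tTA arrays serve here and in rTg4510 against tTA, so these opposite directions are not separate observations.

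**Figure D4:**
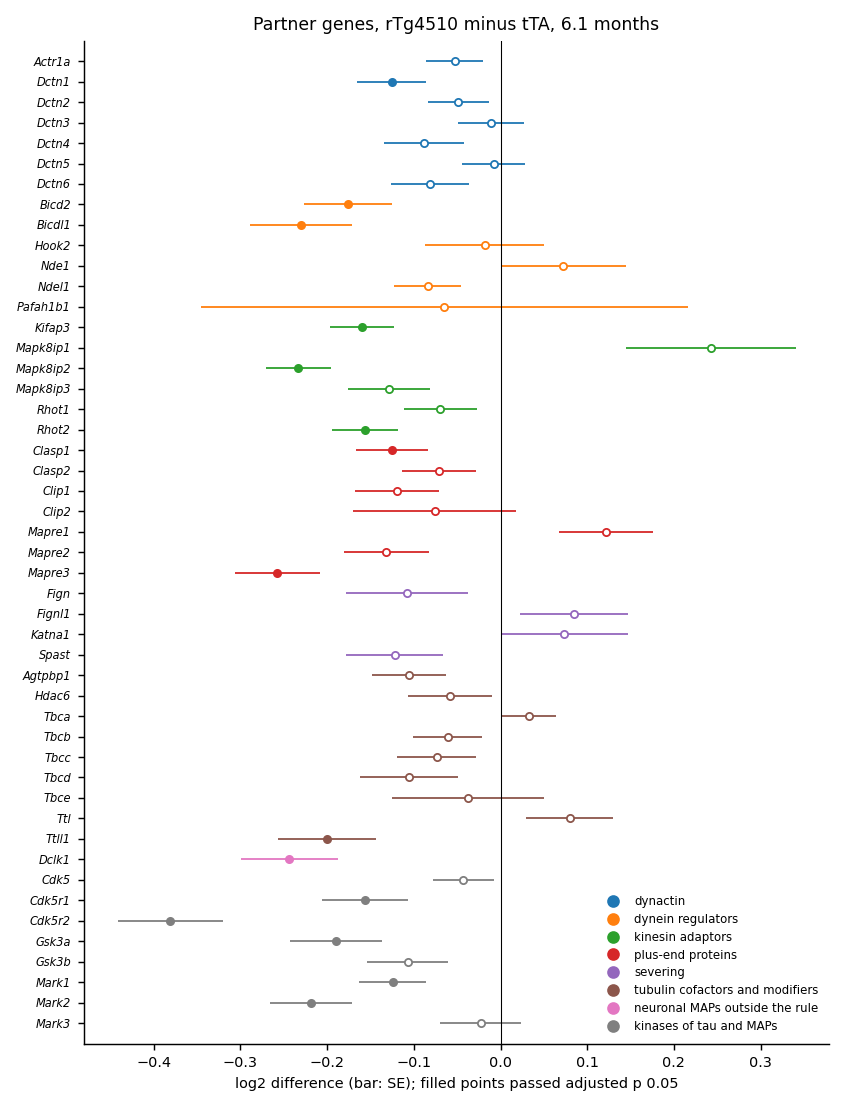
Log2 difference of rTg4510 minus tTA at 6.1 months (x axis, bars for the SE) for the 48 partner genes (rows, coloured by function). Filled points passed an adjusted p of 0.05. All 15 filled points lie below 0, from -0.38 for Cdk5r2 to -0.12 for Mark1.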

How the data were processed

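Signals were deposited by the authors as log2 values of RMA, which corrects background, equalises arrays and combines probes into probe sets. RMA is named in the submitters' processing notes without a version, and the genome build behind the array is not given in the sources used here. The study excluded a 6.1 month tTA array, and the labels do not say whether it is among the 76 used here. Of 22716 probe sets 90 control sets were left out and 22626 tested, 18003 of them with 1 gene symbol, 287 with several and 4336 not listed. Of the 59 probe sets that stood for the members, 7 ended in _s_at and 4 in _x_at. Probes of such sets can match related genes, so signals of similar tubulins may be shared. Precision is limited by how many arrays a group held.

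Differences were fitted with limma 3.58.1 (lmFit, eBayes, two-sided) in R 4.3.3, with the 3 genotypes of an age in 1 fit (tTA and DN at 10.7 months), the 3 ages of a genotype for the F tests and 4 groups for the interaction, and p-values were adjusted (Benjamini-Hochberg) across all 22626 probe sets, with 0.05 as the limit and no limit on the fold. Fits were tested on simulated data. Named are members past the threshold in rTg4510 against tTA (up to 12 each way) and tTA against DN (up to 8), those of lowest adjusted p with age, the member of highest mean signal of each role, the cilium kinesins, 4 partners, and members whose other probe set passed the opposite way. A few further members and probe sets were named after their values were seen. Members, lists and rules were chosen with earlier results of these data known. Other settings tried were centring, the linear scale, a plain linear model, repeated quantile normalisation, the brighter probe sets, all 9 or only the compared groups, averaging the probe sets of each gene, a choroid plexus covariate, and leaving out mouse 21, mouse 40, the 6.1 month mice numbered 75 and above, or each array. Tables and plots were made in Python 3.11.15 with pandas 2.3.3, numpy 2.4.6 and matplotlib 3.10.9. Promoters are from RefSeq, build GRCm38.p6.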

Additional observations from a re-analysis of the deposited data

Results flagged for a closer look

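Among 198 sets of values (22 members that passed in some comparison, in 9 groups) 17 values stood apart from their group, 8.6%, where chance gives about 1 in 20. The 10.7 month DN mouse119 was the lowest for Dync1li1 (8.36, the next mouse at 8.87), Tubb2a (11.03), Tubb3 (8.66) and Tubb4b (9.89) and the highest for Kif5a (9.53). The 6.1 month tTA mouse 21 was the lowest for Kif5a (7.50) and Dync1li1 (8.76). The 4.7 month DN mouse 70 was the lowest for Dync1i1 (8.95) and Stmn4 (9.47), and DN mouse 57 of that age for Kif5a (7.80). In rTg4510 mice Dync1i1 was lowest in mouse 7 of 6.1 months (8.90), Kif17 highest in mouse 43 of 4.7 months (6.90) and Kif3b lowest and Map4 highest in mouse 88 of 1.9 months (6.99 and 9.61). In tTA mice Stmn2 was lowest in mouse 69 of 4.7 months (10.96, the next at 11.04), Tubb6 lowest in mouse116 (2.81) and Tubg1 highest in mouse112 (6.95), the last 2 at 10.7 months.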

How the results depend on the processing

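No difference between genotypes that passed changed sign in the alternatives other than leaving out each mouse. Of those that did not pass between rTg4510 and tTA mice at 6.1 months, 8 changed sign with the mean of all probe sets, among them Klc1 (to 0.09), Kif5c (0.04) and Kif17 (0.03), and 6 with the choroid plexus covariate. Counts of members called stayed within 1.5 times the reported count in 85 cases and did not in 22, and named differences that passed against tTA or of tTA against DN kept their call in 207 cases and lost it in 38. For rTg4510 against tTA at 4.7 months the count of 3 became 5 in the plain linear model and on the linear scale, 7 after centring and 1 with the choroid plexus covariate, and at 6.1 months the count of 11 became 5 with only the compared groups in the fit. For rTg4510 against DN at 6.1 months the count of 10 became 6 without the mice numbered 75 and above. For tTA against DN the count of 3 at 4.7 months became 5 with the brighter probe sets and 6 with the mean of all probe sets, the count of 6 at 6.1 months became 10 with the brighter probe sets and 2 without the mice numbered 75 and above, and the count of 0 at 10.7 months became 1 on the linear scale and 4 with all 9 groups. For age in rTg4510 the count of 2 became 7 in the plain linear model and on the linear scale, 4 after centring, 6 with the brighter probe sets and with all 9 groups, 8 with the mean of all probe sets, and 1 with the choroid plexus covariate or without mouse 40. For age in tTA the count of 0 became 1 with all 9 groups, and for age in DN 1 with the brighter probe sets. The cause of these changes was not tested.

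Leaving out 1 mouse at a time gave 2 to 5 calls for rTg4510 against tTA at 4.7 months (5 without tTA mouse 69) and 6 to 12 at 6.1 months (6 without rTg4510 mouse 7 and 7 without mouse 12). It gave 7 to 10 for rTg4510 against DN at 4.7 months and 5 to 12 at 6.1 months (5 without rTg4510 mouse 7 or 10, 6 without DN mouse 28 or 78). For tTA against DN it gave 2 to 5 at 4.7 months (5 without tTA mouse 69), 2 to 7 at 6.1 months (2 without mouse 13, 15 or 78, 3 without 17, 23 or 25) and 0 at 10.7 months. Age in rTg4510 gave 1 to 4 (4 without mouse 75, 1 without any of 13 others), age in tTA 0, age in DN 0 to 1 (1 without mouse 58), and the interaction 0. Calls near the threshold and members with signals near the low end of the scale are the least certain. No paired analysis was possible because each mouse number occurs in 1 group only.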
